A study of Homo sapiens with 9 samples.

Results

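The genes described here are the 39 that encode the enzymes making purine and pyrimidine nucleotides or recovering them from bases and nucleosides. They were taken by name, from the deposited count table, as the rows whose NCBI gene identifier maps to a fixed list of symbols, a rule that uses no measured value, although the list itself was drawn up with earlier results of these data known. All 39 were among the 28395 genes listed, and all 39 passed the filter of a mean of 50 counts that left 12695 genes to be tested. RNA sequencing counts came from 3 human renal cell lines, each with 3 libraries. HK2 is an immortalised line of normal kidney proximal tubule, labelled parental. 786-O is a parental line from a primary clear cell renal cell carcinoma (ccRCC), and 786-M1A is a metastatic derivative of 786-O that was recovered from lung metastases in mice. No line was treated, and all were grown stably in Plasmax, a medium with nutrients close to those of plasma. Each group is therefore a single line, so a difference between groups is a difference between lines, and the libraries of a line are cultures of it whose spread may be technical. The study asked how nitrogen from branched-chain amino acids is used along the progression of ccRCC, and nucleotides are among the products that take up such nitrogen.

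Purines are built step by step on phosphoribosyl pyrophosphate (PRPP), with nitrogen from glutamine, glycine and aspartate, until inosine monophosphate (IMP) is reached, from which AMP and GMP are made. Pyrimidines are instead built as a free ring from glutamine, bicarbonate and aspartate, which is then joined to PRPP to give UMP. Salvage enzymes recover bases and nucleosides at lower cost, and ribonucleotide reductase turns ribonucleotides into the deoxynucleotides used for DNA. Tumor cells are known to draw on both routes.

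The libraries held between 30212291 and 45362428 counts on genes, and the biological coefficient of variation that edgeR estimated was 3.93%. Levels are given as CPM, the counts scaled to a library of fixed size, after TMM scaling, and differences as log2 fold changes from edgeR's quasi-likelihood test with Benjamini-Hochberg adjustment over the 12695 genes. A gene is called where the adjusted p-value is under 0.05. With replicates this close, 84.2% of all genes tested were called for 786-O against HK2, so the size of a difference separates the nucleotide genes from one another more than the call does. The tubule lineage gene *PAX8* was present in all lines (167, 165 and 182 CPM in HK2, 786-O and 786-M1A). Of the mature proximal tubule markers, *LRP2* was at 0 and *CUBN*, *SLC34A1* and *AQP1* had means of 1.06 CPM or less. The brush border enzymes were detected, *GGT1* at 108, 80.6 and 88.4 CPM and *ANPEP* at 1.75, 112 and 19.8 CPM, the latter 64.6-fold higher in 786-O than in HK2. Of the 7 tubule markers tested, 3 were higher and 3 lower in either carcinoma line than in HK2. *CA9*, a gene typical of ccRCC, had means of 0.0312 CPM or less, whereas *VEGFA* (19.4, 163 and 330.2 CPM) was higher in both carcinoma lines. The leukocyte genes *PTPRC* and *CD3E* were at 0 throughout, while *CD68*, a lysosomal gene typical of macrophages, stood at 51.0, 27.0 and 36.0 CPM and was called in all 3 comparisons. The 4 endothelial markers together reached at most 1.11 CPM in a library. Of the 5 fibroblast markers, *PDGFRB* stood at 5.00, 2.60 and 282 CPM, *COL1A1* at 53.8, 292 and 16.5 CPM and *LUM* at 22.5, 14.6 and 5.48 CPM, each called in all 3 comparisons, while *COL1A2* and *DCN* had means of 0.127 CPM or less. The part of these marker genes in the differences below was not tested.

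The starts of 5 of the genes are shown as a description, and no test below uses them. They are windows of 300 bases from 250 before the RefSeq start site, on GRCh38.p14, written 5′ to 3′ on the strand of the gene. *PPAT* (chr4:56435566-56435865, minus strand) is shown because its start site lies 137 bases from a start site of *PAICS* on the other strand. *PRPS1* (chrX:107628260-107628559, plus strand) and *PRPS2* (chrX:12791162-12791461, plus strand) are shown because both fell together, *TYMS* (chr18:657403-657702, plus strand) as a gene of thymidylate supply that holds an E2F motif, and *PRTFDC1* (chr10:24952557-24952856, minus strand) as the gene that differed most. In the first 4, capitals mark an E-box (CACGTG, the letters that *MYC* is known to bind) or an E2F motif (TTTCCCGC, TTTCGCGC, TTTGCCGC or TTTGGCGC), searched on both strands. In *PRTFDC1*, capitals mark CpG dinucleotides.
PPAT: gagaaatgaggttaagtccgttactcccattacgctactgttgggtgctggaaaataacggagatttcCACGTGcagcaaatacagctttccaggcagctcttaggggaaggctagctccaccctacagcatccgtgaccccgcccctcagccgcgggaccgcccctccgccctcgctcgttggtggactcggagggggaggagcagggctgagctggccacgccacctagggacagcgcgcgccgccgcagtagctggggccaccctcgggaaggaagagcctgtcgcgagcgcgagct
PRPS1: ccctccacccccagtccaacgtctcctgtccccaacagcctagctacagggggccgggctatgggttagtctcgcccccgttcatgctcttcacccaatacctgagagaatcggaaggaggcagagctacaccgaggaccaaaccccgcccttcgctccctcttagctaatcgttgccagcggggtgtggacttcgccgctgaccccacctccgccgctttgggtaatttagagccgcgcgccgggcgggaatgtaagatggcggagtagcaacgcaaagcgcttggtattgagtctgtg
PRPS2: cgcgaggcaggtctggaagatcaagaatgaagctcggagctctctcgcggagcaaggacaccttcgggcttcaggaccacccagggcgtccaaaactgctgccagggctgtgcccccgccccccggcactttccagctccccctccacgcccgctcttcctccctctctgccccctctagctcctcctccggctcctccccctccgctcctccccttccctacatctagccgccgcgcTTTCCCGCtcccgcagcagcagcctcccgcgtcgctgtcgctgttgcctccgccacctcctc
TYMS: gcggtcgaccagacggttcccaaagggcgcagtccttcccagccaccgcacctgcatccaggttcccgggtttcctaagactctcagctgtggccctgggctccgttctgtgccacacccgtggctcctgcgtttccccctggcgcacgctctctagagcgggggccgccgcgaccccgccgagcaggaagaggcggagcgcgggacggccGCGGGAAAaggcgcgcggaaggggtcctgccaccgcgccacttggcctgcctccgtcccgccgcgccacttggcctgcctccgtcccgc
PRTFDC1: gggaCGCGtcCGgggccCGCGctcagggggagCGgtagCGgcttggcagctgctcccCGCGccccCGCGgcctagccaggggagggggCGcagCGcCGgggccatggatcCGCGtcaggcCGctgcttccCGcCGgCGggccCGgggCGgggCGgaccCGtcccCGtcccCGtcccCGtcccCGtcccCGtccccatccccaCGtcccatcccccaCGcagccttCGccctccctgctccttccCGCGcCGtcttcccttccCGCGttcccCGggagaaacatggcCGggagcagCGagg

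RefSeq windows matched 37 of the 39 genes, and for each gene only the window nearest its MANE Select start site was searched. The shares over all genes instead take every window, alternative starts included, so they are not shares of genes. The E-box was in the windows of 6 of the 37, *PPAT*, *ATIC*, *DHODH*, *UCKL1*, *DCK* and *NME1*, against 7.26% of the 35116 windows of all genes. An E2F motif was in 4 of the 37, *PRPS2*, *GART*, *DCK* and *TYMS*, against 3.31% of all windows. The E-box of *PPAT* began 182 bases before its start site, which placed it 40 bases after the nearest of 3 annotated start sites of *PAICS* on the other strand. The MANE Select start site of *PAICS*, whose window held no E-box, lies 645 bases from that of *PPAT*. The window of *PRTFDC1* held 40 CpG dinucleotides, against a median of 14 over all windows. This count does not set it apart from the other members, since the windows of *DCTD* (47), *DTYMK* (43) and *UCKL1* (41) held more. These matches describe letters in a window, and no binding or methylation was measured in these libraries.

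**Figure D1:**
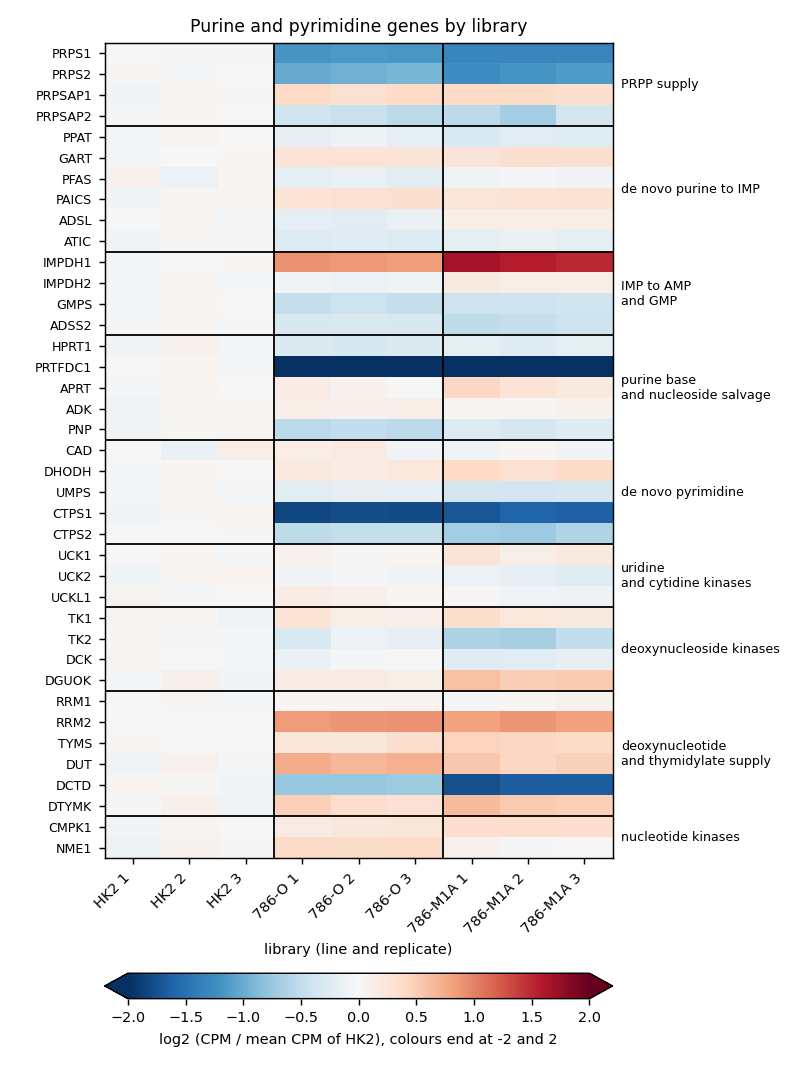
Level of each of the 39 genes (rows, grouped by role) in each of the 9 libraries (columns), as the log2 ratio of its CPM to the mean CPM of the 3 HK2 libraries; colours end at -2 and 2, and PRTFDC1 goes beyond in 786-O and 786-M1A. PRPS1, PRPS2, CTPS1 and DCTD are blue in both carcinoma lines, IMPDH1 and RRM2 are red, and most other rows are pale.

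Of the 39 genes, 32 were called between 786-O and HK2, against 84.2% of all genes tested. In 786-O 14 were higher and 18 lower, where 41.6% and 42.6% of all genes were. *PRTFDC1*, *CTPS1* and *PRPS1* were lower by at least 2-fold and no member was higher by as much, while 22.3% of all genes were called with a difference of that size. The median log2 fold change of the 39 was -0.042, beside -0.0125 over all genes. Between 786-M1A and HK2, 33 were called, 16 higher and 17 lower, against 84.9%, 41.6% and 43.3% of all genes. At least a 2-fold difference was reached by *IMPDH1*, which was higher, and by *PRTFDC1*, *DCTD*, *CTPS1*, *PRPS1* and *PRPS2*, which were lower, and 25.4% of all genes were called at that size. The median of the 39 was -0.031, beside -0.0188 over all genes. The 786-M1A line differed from 786-O in 28 of them, 15 higher and 13 lower, against 56.0%, 27.9% and 28.0% of all genes. *PRTFDC1* alone reached 2-fold in that comparison, where 6.59% of all genes did, and the medians were 0.0074 for the 39 and 0 for all genes. The share of nucleotide genes called was thus close to that of the whole table against HK2 and above it between the carcinoma lines (71.8% against 56.0%), and fewer of them than of all genes reached 2-fold in each comparison. No test was made of these shares, the 39 were not matched to all genes by level, and the differences described next concern single enzymes. In bulk RNA, fewer cells that express a gene and less of its RNA per cell cannot be told apart.

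**Figure D2:**
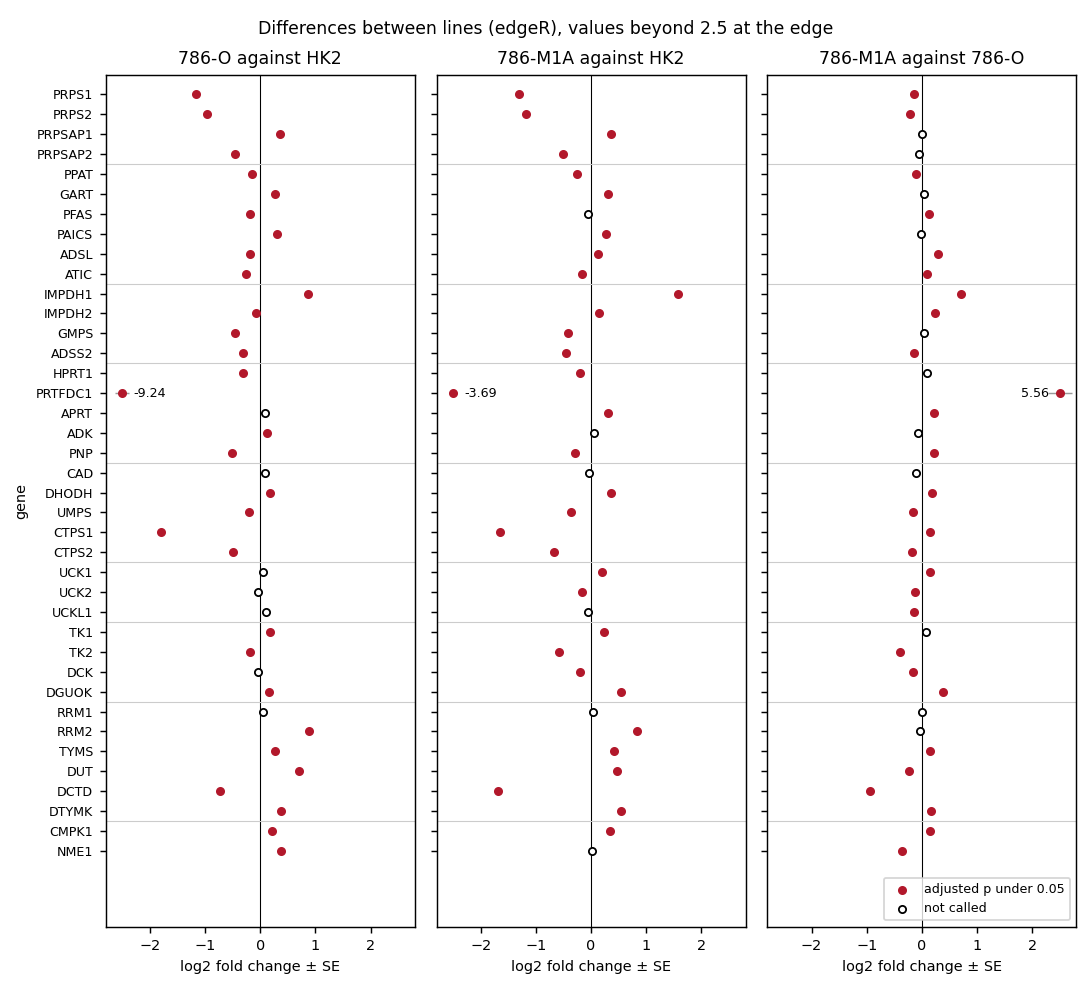
Log2 fold change (edgeR, bars are standard errors, n = 3 libraries per line) of each of the 39 genes in the 3 comparisons, filled where the adjusted p-value was under 0.05 and open where it was not. The 3 values of PRTFDC1, -9.24, -3.69 and 5.56, lie beyond the axis and are drawn at its edge with the number beside them.

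Both synthetases of PRPP, the sugar phosphate that purine and pyrimidine synthesis consume, were lower in the carcinoma lines. *PRPS1* (NCBI gene 5631, chromosome X, 107628428 to 107651993, plus strand, all positions on GRCh38), the main PRPP synthetase, was at 457, 463 and 452 CPM in the HK2 libraries, 202, 206 and 203 in those of 786-O and 184, 184 and 185 in those of 786-M1A. The 3 lines did not overlap, and HK2 stood apart from both others. Against HK2, *PRPS1* had log2 fold changes of -1.16 ± 0.033 (SE, 786-O) and -1.31 ± 0.033 (786-M1A), and against 786-O it had -0.14 ± 0.033 in 786-M1A (edgeR adjusted p = 1.43e-18, 1.77e-19 and 8.71e-04). *PRPS2* (NCBI gene 5634, chromosome X, 12791355 to 12824222, plus strand), the other synthetase of most tissues, was at 164, 159 and 163 CPM in the HK2 libraries, 80.6, 83.1 and 85.6 in those of 786-O and 68.6, 71.2 and 74.1 in those of 786-M1A. For *PRPS2*, the log2 fold change over HK2 came to -0.96 ± 0.040 (SE) for 786-O and -1.18 ± 0.040 for 786-M1A, and that of 786-M1A over 786-O to -0.22 ± 0.041 (edgeR adjusted p = 1.29e-15, 3.56e-17 and 1.00e-04). Levels per kilobase of transcript were higher for *PRPS1* than for *PRPS2* in every line, 221 against 65.6 CPM per kb in HK2 and 89.1 against 28.9 in 786-M1A. Both fell by similar factors, with a log2 ratio of *PRPS1* to *PRPS2* within a library of 1.496 ± 0.036 in HK2 (SD, n = 3), against 1.29 ± 0.040 in 786-O and 1.37 ± 0.053 for 786-M1A. *PRPSAP1* and *PRPSAP2* encode proteins that associate with the synthetases and are regarded as their regulators, and they went opposite ways. *PRPSAP1* was at 53.4 ± 1.88 CPM in HK2 (SD, n = 3), against 68.7 ± 2.53 in 786-O and 69.1 ± 1.47 for 786-M1A, and rose by 0.36 and 0.37 on the log2 scale against HK2. *PRPSAP2* was at 28.8 ± 0.808 CPM in HK2 (SD, n = 3), against 21.0 ± 0.949 in 786-O and 20.1 ± 2.11 for 786-M1A, and its log2 fold changes against HK2 were -0.46 and -0.52. Neither was called between 786-M1A and 786-O. Summed over the 4 genes, the libraries ran from 697 to 707 CPM in HK2, from 374 to 379 in 786-O and from 342 to 349 in 786-M1A. RefSeq windows of *PRPS1* and *PRPS2*, printed above, differed in that the *PRPS2* window held an E2F motif and the *PRPS1* window neither motif.

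The 6 enzymes that carry PRPP to IMP changed little, in both directions. Their largest log2 fold change in any comparison was 0.30 (*GART*, 786-M1A against HK2), and the sum of their levels ran from 987 to 1019 CPM in HK2, from 1033 to 1048 in 786-O and from 1060 to 1093 in 786-M1A. *PPAT*, the amidotransferase that takes the first nitrogen from glutamine and commits the pathway, was at 78.7, 83.9 and 81.0 CPM in the HK2 libraries, 72.5, 75.7 and 72.1 in those of 786-O and 65.5, 69.3 and 69.0 in those of 786-M1A. Each line lay below the former without overlap. edgeR gave *PPAT* log2 fold changes of -0.15 ± 0.042 (SE) and -0.26 ± 0.042 for 786-O and 786-M1A over HK2 and of -0.11 ± 0.042 for 786-M1A over 786-O (adjusted p = 0.00262, 7.12e-06 and 0.029). The last of these calls was lost without 786-O replicate 2 (log2 fold change then -0.083), 786-M1A replicate 1 (-0.081) or 786-M1A replicate 3 (-0.11). *PAICS*, which adds carbon dioxide and aspartate to the growing ring, was at 306, 325 and 321 CPM in the HK2 libraries, 382, 391 and 396 in those of 786-O and 375, 385 and 388 in those of 786-M1A. Against HK2, *PAICS* had log2 fold changes of 0.29 ± 0.035 (SE, 786-O) and 0.27 ± 0.035 (786-M1A), and against 786-O it had -0.026 ± 0.035 in 786-M1A (edgeR adjusted p = 8.38e-08, 3.26e-07 and 0.547). The neighbours that start head to head, *PPAT* and *PAICS*, thus were called in opposite directions against HK2 in both carcinoma lines. *GART*, a trifunctional enzyme of the pathway, was at 164 ± 4.30 CPM in HK2 (SD, n = 3), against 197 ± 1.15 in 786-O and 202 ± 5.14 for 786-M1A, and rose by 0.27 and 0.30 against HK2 on the log2 scale. *PFAS*, which takes the second glutamine nitrogen, was at 96.7 ± 6.98 CPM in HK2 (SD, n = 3), against 85.1 ± 2.02 in 786-O and 93.0 ± 2.21 for 786-M1A. It was lower in 786-O than in HK2 (-0.18) and not called in 786-M1A against HK2 (-0.055 ± 0.047). *ATIC*, the enzyme of the closing steps, was at 225 ± 6.41 CPM in HK2 (SD, n = 3), against 188 ± 2.19 in 786-O and 201 ± 2.99 for 786-M1A, with log2 fold changes against HK2 of -0.26 and -0.16. The calls of *PFAS* (0.13) and *ATIC* (0.099) between 786-M1A and 786-O were lost without 786-O replicate 3 (0.11 and 0.093) or without 786-M1A replicate 2 (0.12 and 0.095). *PFAS*, on the other hand, was called between 786-M1A and HK2 without HK2 replicate 2 (-0.11). *ADSL*, adenylosuccinate lyase, which acts here and again on the way to AMP, was at 122, 128 and 119.8 CPM in the HK2 libraries, 109, 106 and 111 in those of 786-O and 133, 134 and 133 in those of 786-M1A. It was the lowest in 786-O and the highest in 786-M1A, with no overlap of the lines. For *ADSL*, the log2 fold change over HK2 came to -0.18 ± 0.038 (SE) for 786-O and 0.12 ± 0.038 for 786-M1A, and that of 786-M1A over 786-O to 0.30 ± 0.038 (edgeR adjusted p = 1.87e-04, 0.00741 and 9.63e-07).

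At the branch from IMP, the step toward GMP held the largest rise of the 39 genes from HK2 to 786-M1A. *IMPDH1* (NCBI gene 3614, chromosome 7, 128392277 to 128409986, minus strand) encodes an isoform of IMP dehydrogenase, the rate-limiting enzyme of guanine nucleotide synthesis, and was at 86.7, 88.4 and 89.7 CPM in the HK2 libraries, 165, 161 and 157 in those of 786-O and 278, 264 and 252 in those of 786-M1A. The 3 lines were separate, with 786-O in the middle. edgeR gave *IMPDH1* log2 fold changes of 0.87 ± 0.041 (SE) and 1.58 ± 0.041 for 786-O and 786-M1A over HK2 and of 0.72 ± 0.040 for 786-M1A over 786-O (adjusted p = 1.25e-14, 2.48e-19 and 1.60e-12). *IMPDH2*, the isoform usually associated with proliferating cells, was at 227, 239 and 225 CPM in the HK2 libraries, 221, 213 and 218 in those of 786-O and 262, 253 and 251 in those of 786-M1A. Against HK2, *IMPDH2* had log2 fold changes of -0.085 ± 0.036 (SE, 786-O) and 0.15 ± 0.036 (786-M1A), and against 786-O it had 0.23 ± 0.036 in 786-M1A (edgeR adjusted p = 0.0368, 7.07e-04 and 1.18e-05). The call between 786-O and HK2 was lost without HK2 replicate 2 (-0.064), without 786-O replicate 1, 2 or 3 (-0.092, -0.066 and -0.085) and without 786-M1A replicate 2 or 3 (-0.081 and -0.081). Within a library, the log2 ratio of *IMPDH1* to *IMPDH2* was -1.38 ± 0.055 in HK2 (SD, n = 3), against -0.43 ± 0.034 in 786-O and 0.049 ± 0.041 for 786-M1A. Per kilobase of transcript *IMPDH2* remained the higher in each line, at 155 against 101 CPM per kb in 786-M1A. *GMPS*, the next enzyme toward GMP, was lower in both carcinoma lines, at 225 ± 6.37 CPM in HK2 (SD, n = 3), against 164 ± 2.34 in 786-O and 169 ± 1.85 for 786-M1A. Its log2 fold changes were -0.46 ± 0.035 (SE) in 786-O and -0.41 ± 0.035 in 786-M1A against HK2 (edgeR adjusted p = 6.85e-11 and 3.86e-10). *ADSS2*, which opens the branch to AMP, was at 129.5 ± 3.35 CPM in HK2 (SD, n = 3), against 105 ± 0.728 in 786-O and 94.2 ± 2.94 for 786-M1A. The log2 fold changes of *ADSS2* were -0.31 ± 0.038 (SE) in 786-O and -0.46 ± 0.039 in 786-M1A against HK2 (edgeR adjusted p = 1.53e-07 and 2.74e-10), and against 786-O it was lower in 786-M1A (-0.15). Of the 4 genes of this branch point, *IMPDH1* was thus the one called higher than HK2 in both carcinoma lines, and *GMPS* and *ADSS2* were called lower in both.

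**Figure D3:**
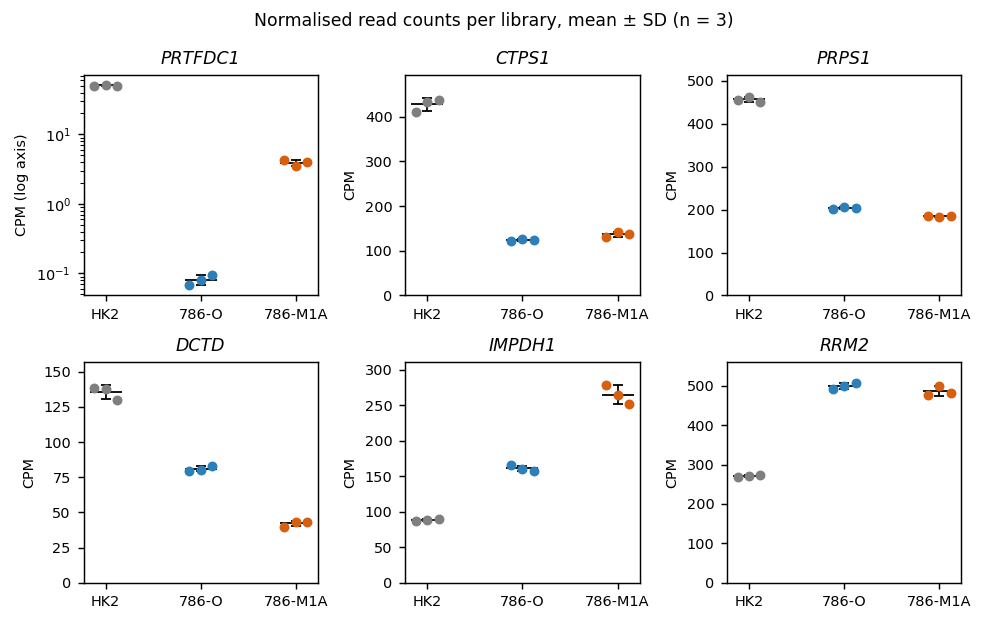
Normalised read counts (CPM) in each library of 6 genes with large differences, with the mean and SD of the 3 libraries of each line; the axis of PRTFDC1 is logarithmic and the others start at 0. PRTFDC1, CTPS1, PRPS1 and DCTD are highest in HK2, IMPDH1 is highest in 786-M1A, and RRM2 is higher in both carcinoma lines than in HK2.

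Purine salvage held the largest difference of the 39 genes. *PRTFDC1* (NCBI gene 56952, chromosome 10, 24848614 to 24952606, minus strand) is a paralog of the salvage enzyme *HPRT1* whose own activity is regarded as weak. It was at 50.5, 52.1 and 49.3 CPM in the HK2 libraries, 0.0677, 0.0797 and 0.0945 in those of 786-O and 4.29, 3.52 and 3.99 in those of 786-M1A. These levels are counts of 1569, 2098 and 2279 in HK2, of 3, 3 and 4 in 786-O and of 155, 135 and 151 in 786-M1A. In 786-O it was thus near 3 counts, a floor chosen here (0.0647 to 0.0964 CPM) and not the smallest count possible. No overlap was found between any lines. For *PRTFDC1*, the log2 fold change over HK2 came to -9.24 ± 0.13 (SE) for 786-O and -3.69 ± 0.068 for 786-M1A, and that of 786-M1A over 786-O to 5.56 ± 0.22 (edgeR adjusted p = 4.26e-24, 5.81e-22 and 3.47e-15). With 10 counts in all of 786-O a fitted value depends on the prior count, and the ratio of summed counts after scaling was 629-fold between HK2 and 786-O, with an exact 95% interval for counting error alone of 342 to 1312. By the same ratio it was 48.8-fold higher in 786-M1A than in 786-O (26.3 to 102.5) and 12.9-fold higher in HK2 than in 786-M1A (11.7 to 14.2). *HPRT1*, which recovers hypoxanthine and guanine, was at 102, 111 and 104 CPM in the HK2 libraries, 85.9, 84.0 and 85.8 in those of 786-O and 92.5, 88.4 and 92.7 in those of 786-M1A. edgeR gave *HPRT1* log2 fold changes of -0.31 ± 0.041 (SE) and -0.21 ± 0.041 for 786-O and 786-M1A over HK2 and of 0.097 ± 0.041 for 786-M1A over 786-O (adjusted p = 5.25e-07, 7.45e-05 and 0.0509). The last value passed the threshold in 8 of 17 alternatives, which were RLE scaling (0.10), DESeq2 (0.10), no filter on low counts (0.10) and a fit of the 2 lines alone (0.093), and the fits without 786-M1A replicate 2 (0.13) and without HK2 replicate 1, 2 or 3 (0.10, 0.10 and 0.10). *PNP*, which splits inosine and guanosine into base and sugar, was at 94.8 ± 4.36 CPM in HK2 (SD, n = 3), against 66.5 ± 1.18 in 786-O and 77.6 ± 2.01 for 786-M1A. Its log2 fold changes were -0.51 ± 0.042 (SE) in 786-O and -0.29 ± 0.042 in 786-M1A against HK2 (edgeR adjusted p = 2.16e-10 and 1.58e-06), and it rose by 0.22 from 786-O to 786-M1A. *APRT*, the adenine salvage enzyme, was at 76.7 ± 2.43 CPM in HK2 (SD, n = 3), against 81.3 ± 4.71 in 786-O and 94.6 ± 7.38 for 786-M1A, and was called higher in 786-M1A than in HK2 (0.30) and than in 786-O (0.22). *ADK*, the adenosine kinase, was at 73.0 ± 2.86 CPM in HK2 (SD, n = 3), against 79.1 ± 0.491 in 786-O and 75.5 ± 1.18 for 786-M1A, and no library lay outside 69.7 to 79.6 CPM. Its call between 786-O and HK2 (0.11) was lost without HK2 replicate 1 (0.077). Of these 5 genes, *HPRT1*, *PRTFDC1* and *PNP* were lower than HK2 in both carcinoma lines.

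In pyrimidine synthesis the largest decrease lay at its end, the step from UTP to CTP. *CTPS1* (NCBI gene 1503, chromosome 1, 40979300 to 41012565, plus strand), the CTP synthetase that proliferating lymphocytes depend on, was at 412, 433 and 439 CPM in the HK2 libraries, 121, 126 and 124 in those of 786-O and 131, 142 and 138 in those of 786-M1A. HK2 stood apart from both carcinoma lines, which differed little from each other. Against HK2, *CTPS1* had log2 fold changes of -1.79 ± 0.039 (SE, 786-O) and -1.65 ± 0.039 (786-M1A), and against 786-O it had 0.15 ± 0.039 in 786-M1A (edgeR adjusted p = 1.65e-20, 6.08e-20 and 0.00343). *CTPS2*, the second CTP synthetase, was at 36.9, 37.0 and 37.9 CPM in the HK2 libraries, 26.3, 26.9 and 26.7 in those of 786-O and 23.1, 22.6 and 24.5 in those of 786-M1A. For *CTPS2*, the log2 fold change over HK2 came to -0.49 ± 0.047 (SE) for 786-O and -0.67 ± 0.048 for 786-M1A, and that of 786-M1A over 786-O to -0.19 ± 0.049 (edgeR adjusted p = 3.32e-09, 1.78e-11 and 0.00286). The log2 ratio of *CTPS1* to *CTPS2* was 3.52 ± 0.037 in HK2 (SD, n = 3), against 2.21 ± 0.0083 in 786-O and 2.54 ± 0.089 for 786-M1A, and per kilobase *CTPS1* was the higher in each line (43.5 against 6.74 CPM per kb in 786-O). *CAD*, the large enzyme of the first 3 steps, which takes up glutamine and aspartate, was at 229.6, 208 and 249.8 CPM in the HK2 libraries, 252, 257 and 221 in those of 786-O and 217, 237 and 220.0 in those of 786-M1A. All lines overlapped. edgeR gave *CAD* log2 fold changes of 0.083 ± 0.071 (SE) and -0.031 ± 0.071 for 786-O and 786-M1A over HK2 and of -0.11 ± 0.071 for 786-M1A over 786-O (adjusted p = 0.291, 0.69 and 0.197). Its SD of 20.7 CPM in HK2 was the largest of the 39 genes there. The 786-O value passed the threshold without HK2 replicate 3 (0.14) or 786-O replicate 3 (0.15), and the difference between 786-M1A and 786-O passed it without 786-O replicate 3 (-0.18). *DHODH*, the mitochondrial enzyme that follows, was the lowest of the 5, at 14.1 ± 0.303 CPM in HK2 (SD, n = 3), against 16.02 ± 0.407 in 786-O and 18.2 ± 0.598 for 786-M1A, and rose against HK2 by 0.18 and 0.37. *UMPS*, which makes UMP with PRPP, was at 85.4 ± 3.06 CPM in HK2 (SD, n = 3), against 74.3 ± 1.01 in 786-O and 66.5 ± 1.06 for 786-M1A, with log2 fold changes against HK2 of -0.20 and -0.36. Summed over the 5, the libraries ran from 775 to 824 CPM in HK2, from 462 to 499 in 786-O and from 455 to 484 in 786-M1A.

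The kinases that recover uridine and cytidine differed little, with a largest log2 fold change of 0.20 (*UCK1*, 786-M1A against HK2). *UCK1* was at 34.2, 35.4 and 33.5 CPM in the HK2 libraries, 36.4, 35.1 and 35.4 in those of 786-O and 41.7, 37.3 and 39.4 in those of 786-M1A. *UCK2*, the form with the higher activity and the one often raised in tumors, was at 91.4, 99.9 and 99.0 CPM in the HK2 libraries, 93.5, 95.2 and 93.5 in those of 786-O and 88.7, 86.8 and 82.2 in those of 786-M1A. Neither was called between 786-O and HK2, where the lines overlapped. Against HK2, *UCK1* had log2 fold changes of 0.051 ± 0.049 (SE, 786-O) and 0.20 ± 0.049 (786-M1A), and against 786-O it had 0.15 ± 0.048 in 786-M1A (edgeR adjusted p = 0.334, 7.27e-04 and 0.0126). For *UCK2*, the log2 fold change over HK2 came to -0.042 ± 0.043 (SE) for 786-O and -0.17 ± 0.043 for 786-M1A, and that of 786-M1A over 786-O to -0.13 ± 0.043 (edgeR adjusted p = 0.365, 8.50e-04 and 0.013). *UCKL1*, a related protein, was at 39.1 ± 1.21 CPM in HK2 (SD, n = 3), against 41.8 ± 1.56 in 786-O and 37.7 ± 1.70 for 786-M1A and was called only between 786-M1A and 786-O (-0.15). In that comparison the call of *UCK1* was lost without 786-M1A replicate 1 (0.11) and that of *UCK2* without 786-O replicate 2 (-0.12) or 786-M1A replicate 3 (-0.091). The call of *UCKL1* was lost there without 786-O replicate 1 (-0.12), 786-M1A replicate 2 (-0.13) or 786-M1A replicate 3 (-0.11). Between 786-O and HK2, *UCKL1* passed the threshold without 786-O replicate 3 (0.13) or 786-M1A replicate 1 (0.10).

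Among the deoxynucleoside kinases, the mitochondrial pair moved apart in 786-M1A. *DGUOK*, the mitochondrial deoxyguanosine kinase, was at 39.1, 43.0 and 38.7 CPM in the HK2 libraries, 45.3, 45.2 and 43.5 in those of 786-O and 60.4, 56.6 and 57.8 in those of 786-M1A. edgeR gave *DGUOK* log2 fold changes of 0.15 ± 0.048 (SE) and 0.53 ± 0.048 for 786-O and 786-M1A over HK2 and of 0.38 ± 0.047 for 786-M1A over 786-O (adjusted p = 0.00715, 8.58e-10 and 4.95e-07). *TK2*, the mitochondrial thymidine kinase, was at 20.4, 19.4 and 19.5 CPM in the HK2 libraries, 15.9, 18.2 and 17.6 in those of 786-O and 12.9, 12.5 and 14.0 in those of 786-M1A. Against HK2, *TK2* had log2 fold changes of -0.19 ± 0.062 (SE, 786-O) and -0.59 ± 0.065 (786-M1A), and against 786-O it had -0.39 ± 0.066 in 786-M1A (edgeR adjusted p = 0.00671, 2.89e-08 and 2.94e-05). The 786-M1A libraries were thus the highest of the 9 for *DGUOK* and the lowest for *TK2*. The small calls between 786-O and HK2 were lost without HK2 replicate 3 for *DGUOK* (0.11) and without 786-O replicate 1 for *TK2* (-0.13). *TK1*, the cytosolic thymidine kinase that cells make in S phase, was at 123, 119.8 and 112 CPM in the HK2 libraries, 143, 129 and 127 in those of 786-O and 148, 137 and 134 in those of 786-M1A. For *TK1*, the log2 fold change over HK2 came to 0.17 ± 0.051 (SE) for 786-O and 0.24 ± 0.051 for 786-M1A, and that of 786-M1A over 786-O to 0.069 ± 0.051 (edgeR adjusted p = 0.00455, 2.49e-04 and 0.265). The difference between the carcinoma lines passed the threshold without 786-O replicate 1 (0.13). *DCK*, the deoxycytidine kinase that activates several nucleoside drugs, was at 53.1 ± 1.59 CPM in HK2 (SD, n = 3), against 51.4 ± 2.43 in 786-O and 46.0 ± 1.30 for 786-M1A. It was lower in 786-M1A than in HK2 (-0.20) and than in 786-O (-0.16), and was not called between 786-O and HK2 (-0.045 ± 0.046).

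In the supply of deoxynucleotides, 4 of the 6 genes were higher and 1 was lower than HK2 in each carcinoma line. The share called was 83.3% in both comparisons, close to the 84.2% (786-O) and 84.9% (786-M1A) of all genes tested. *RRM2* (NCBI gene 6241, chromosome 2, 10120698 to 10211725, plus strand), the small subunit of ribonucleotide reductase, whose level limits the enzyme in S phase, was at 269, 272 and 274 CPM in the HK2 libraries, 491, 499 and 507 in those of 786-O and 476, 500.2 and 482 in those of 786-M1A. Both carcinoma lines lay above HK2 and overlapped each other. edgeR gave *RRM2* log2 fold changes of 0.88 ± 0.034 (SE) and 0.84 ± 0.034 for 786-O and 786-M1A over HK2 and of -0.038 ± 0.033 for 786-M1A over 786-O (adjusted p = 3.33e-16, 6.36e-16 and 0.343). *RRM1*, the large subunit, was at 223 ± 4.15 CPM in HK2 (SD, n = 3), against 229.8 ± 1.42 in 786-O and 229 ± 8.42 for 786-M1A, and was not called in any comparison (0.046 ± 0.036, 0.039 ± 0.036 and -0.0070 ± 0.036 on the log2 scale). Per kilobase of transcript *RRM2* was at 83.4 against 70.9 CPM per kb for *RRM1* in HK2, and at 153 against 73.2 in 786-O. *DUT*, the dUTPase that keeps uracil out of DNA and makes dUMP, was at 51.3, 56.9 and 53.0 CPM in the HK2 libraries, 89.7, 85.2 and 88.0 in those of 786-O and 78.0, 71.3 and 74.8 in those of 786-M1A. It was the highest in 786-O, with no overlap of the lines. Against HK2, *DUT* had log2 fold changes of 0.70 ± 0.046 (SE, 786-O) and 0.48 ± 0.047 (786-M1A), and against 786-O it had -0.23 ± 0.045 in 786-M1A (edgeR adjusted p = 4.67e-12, 4.22e-09 and 1.98e-04). *TYMS*, thymidylate synthase, which methylates dUMP to dTMP, was at 69.2, 68.0 and 68.2 CPM in the HK2 libraries, 81.3, 79.9 and 86.3 in those of 786-O and 93.1, 91.7 and 88.4 in those of 786-M1A. For *TYMS*, the log2 fold change over HK2 came to 0.27 ± 0.041 (SE) for 786-O and 0.41 ± 0.041 for 786-M1A, and that of 786-M1A over 786-O to 0.14 ± 0.041 (edgeR adjusted p = 3.44e-06, 5.52e-09 and 0.00538). *DTYMK*, the kinase that follows it, was at 83.8, 91.3 and 80.1 CPM in the HK2 libraries, 118, 109 and 104 in those of 786-O and 132, 122 and 119 in those of 786-M1A. edgeR gave *DTYMK* log2 fold changes of 0.38 ± 0.055 (SE) and 0.55 ± 0.055 for 786-O and 786-M1A over HK2 and of 0.17 ± 0.054 for 786-M1A over 786-O (adjusted p = 3.92e-06, 2.50e-08 and 0.0123). The last of these calls was lost without 786-O replicate 3 (0.13). *DCTD* (NCBI gene 1635, chromosome 4, 182890060 to 182917936, minus strand), the deaminase that turns dCMP into dUMP and so feeds thymidylate synthesis from deoxycytidine nucleotides, went the other way. It was at 139, 138 and 129.8 CPM in the HK2 libraries, 79.8, 80.4 and 83.1 in those of 786-O and 40.0, 43.3 and 43.3 in those of 786-M1A. The 3 lines were separate, and 786-M1A was the lowest. Against HK2, *DCTD* had log2 fold changes of -0.74 ± 0.042 (SE, 786-O) and -1.68 ± 0.044 (786-M1A), and against 786-O it had -0.94 ± 0.045 in 786-M1A (edgeR adjusted p = 3.82e-13, 3.50e-19 and 1.21e-13). Summed over the 6, the libraries ran from 824 to 852 CPM in HK2, from 1083 to 1100 in 786-O and from 1039 to 1058 in 786-M1A, of which *RRM2* made the larger part of the difference.

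Of the 2 nucleotide kinases, *NME1* was higher in 786-O than in either other line. *NME1*, which makes nucleoside triphosphates and was first described as a metastasis suppressor, was at 75.5, 84.3 and 82.3 CPM in the HK2 libraries, 106, 104 and 106 in those of 786-O and 85.9, 78.2 and 81.2 in those of 786-M1A. The 786-O libraries lay above all others, while HK2 and 786-M1A overlapped. For *NME1*, the log2 fold change over HK2 came to 0.38 ± 0.045 (SE) for 786-O and 0.016 ± 0.046 for 786-M1A, and that of 786-M1A over 786-O to -0.36 ± 0.045 (edgeR adjusted p = 1.01e-07, 0.74 and 6.76e-07). *CMPK1*, the UMP and CMP kinase, was at 209 ± 7.85 CPM in HK2 (SD, n = 3), against 241 ± 7.22 in 786-O and 266 ± 1.99 for 786-M1A, and rose against HK2 by 0.21 and 0.35.

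For 6 pairs of enzymes with the same or a related reaction, the log2 ratio within a library was compared between lines (18 tests). In 16 of them the lines did not overlap, and the exact permutation test gave p = 0.1, the smallest that 3 libraries against 3 allow (adjusted 0.1125). *PRPS1* over *PRPS2* between the carcinoma lines and *UCK1* over *UCK2* between 786-O and HK2 overlapped (exact p = 0.2). *TK1* over *TK2* was 2.58 ± 0.052 in HK2 (SD, n = 3), against 2.94 ± 0.20 in 786-O and 3.40 ± 0.14 for 786-M1A. *HPRT1* over *PRTFDC1* went from 1.06 ± 0.041 in HK2 to 9.35 ± 0.15 in 786-O and 4.52 ± 0.11 for 786-M1A, where the middle value depends on the prior count. *UCK1* over *UCK2* went from -1.49 ± 0.072 in HK2 to -1.40 ± 0.039 in 786-O and -1.12 ± 0.082 for 786-M1A. No test of this kind could reach 0.05, so the ratios are descriptions of separate libraries.

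**Figure D4:**
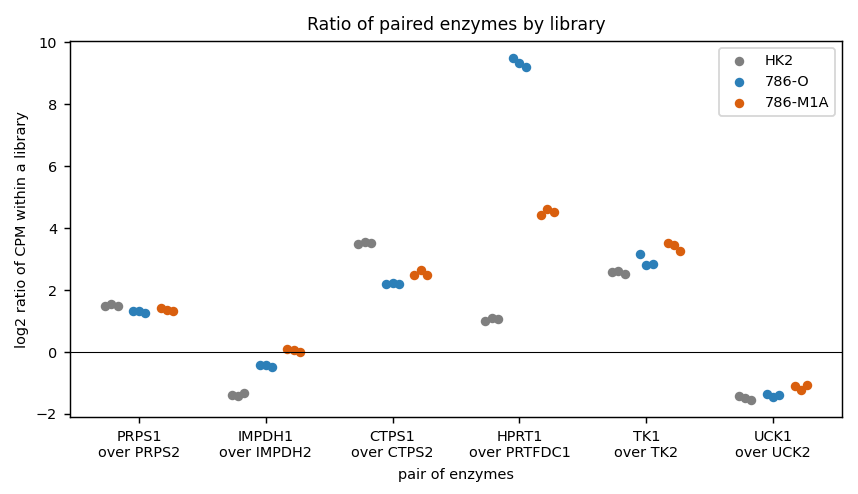
Log2 ratio of the CPM of 2 enzymes within each library (prior count of 2), for 6 pairs, with 1 point per library and a colour per line. IMPDH1 over IMPDH2 rises from about -1.38 in HK2 to 0.049 in 786-M1A, CTPS1 over CTPS2 falls, and HPRT1 over PRTFDC1 is highest in 786-O.

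Enzymes that break nucleotides down were set beside these genes from a separate list. Of 24 listed, 18 were tested, and 9 were higher and 9 lower than HK2 in 786-O, as in 786-M1A. Against 786-O, 5 were higher in 786-M1A and 5 lower. The shares called were 100%, 100% and 55.6% in 786-O against HK2, 786-M1A against HK2 and 786-M1A against 786-O. Of all genes tested, 84.2%, 84.9% and 56.0% were called. *DPYD*, the first enzyme of pyrimidine base breakdown, was at 12.4, 54.4 and 53.4 CPM in HK2, 786-O and 786-M1A (log2 fold changes against HK2 of 2.15 ± 0.058 and 2.12 ± 0.059). *SAMHD1*, which hydrolyses deoxynucleoside triphosphates, was at 27.0, 77.6 and 57.3 CPM and rose by 1.53 on the log2 scale in 786-O against HK2. *TYMP*, the thymidine phosphorylase, was at 6.09, 3.78 and 31.9 CPM, which was 2.38 ± 0.071 on the log2 scale in 786-M1A against HK2 and 3.08 ± 0.076 against 786-O. *CDA*, the cytidine deaminase, was low in all lines, at 2.35, 0.568 and 0.954 CPM. Its log2 fold changes were -2.08 and -1.32 against HK2 and 0.75 in 786-M1A over 786-O. Counts of *CDA* per library were 63 to 128 in HK2, 22 to 25 in 786-O and 26 to 48 in 786-M1A. It thus passed the filter on mean counts through HK2, the line against which it was called lower. *DNPH1*, a nucleotide hydrolase, was at -1.51 on the log2 scale for 786-O against HK2, and *AMPD3*, an AMP deaminase, at -1.47 for 786-M1A against HK2. *UPP1*, the uridine phosphorylase, and the nucleotidase *NT5C3B* were lower in 786-M1A than in 786-O (log2 fold changes of -0.64 and -0.46). *MTAP*, which feeds adenine to salvage from methylthioadenosine and is lost in some tumors, was present in all lines, at 53.1 ± 1.46 CPM in HK2 (SD, n = 3), against 42.8 ± 3.24 in 786-O and 42.8 ± 0.712 for 786-M1A. Its log2 fold changes against HK2 were -0.31 in both carcinoma lines, both called, and it was not called between them (-0.0013 ± 0.051).

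Of 17 other enzymes of interconversion, 14 were tested. In 786-O 6 were higher and 6 lower than HK2, in 786-M1A 7 and 5, and between the carcinoma lines 6 were higher and 1 lower in 786-M1A. The shares called were 85.7%, 85.7% and 50% in these comparisons, against 84.2%, 84.9% and 56.0% of all genes tested. *RRM2B*, the small reductase subunit induced by p53, was at 24.6, 89.7 and 115 CPM in HK2, 786-O and 786-M1A, a log2 fold change of 1.87 ± 0.048 and 2.23 ± 0.048 against HK2. *AK4*, a mitochondrial adenylate kinase that hypoxia induces, rose by 0.80 and 1.03. *NME4*, the mitochondrial member of the family of *NME1*, was at 51.7, 3.22 and 3.68 CPM, a log2 fold change of -4.00 ± 0.069 and -3.81 ± 0.069 against HK2. *AK5*, another adenylate kinase, was lower in 786-O than in HK2 (-1.09 on the log2 scale) and raised in 786-M1A over 786-O by 1.32. *NME3*, of the same family as *NME1*, was raised in 786-M1A over 786-O by 0.76. *CMPK2*, a mitochondrial kinase induced by interferon, was the gene lower in 786-M1A than in 786-O, at 3.68, 3.60 and 0.587 CPM (-2.61 ± 0.15 on the log2 scale, and -2.63 against HK2). Its counts per library were 116 to 159 in HK2, 136 to 166 in 786-O and 20 to 24 in 786-M1A, so it passed the filter through HK2 and 786-O. Nucleoside transporters were few, with 3 of 7 tested. *SLC29A1*, the main equilibrative transporter, was at 74.3, 55.8 and 60.4 CPM with log2 fold changes of -0.41 and -0.30 against HK2 and of 0.11 in 786-M1A over 786-O. For *SLC29A4*, which carries monoamines and adenosine, these were 1.53, 0.59 and -0.94. For *SLC29A3*, a lysosomal transporter, they were -0.36, -0.88 and -0.52. All 9 differences of the 3 transporters tested were called, where 84.2%, 84.9% and 56.0% of all genes were.

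Values that move with cell proliferation and with known regulators stand beside these differences. Of 21 S-phase and proliferation genes, 4 were higher and 15 lower in 786-O than in HK2, 7 higher and 11 lower in 786-M1A than in HK2, and 7 higher and 5 lower in 786-M1A than in 786-O. The shares of this list called were 90.5%, 85.7% and 57.1%, against 84.2%, 84.9% and 56.0% of all genes tested. The median of this list was -0.47 on the log2 scale between 786-O and HK2, while the 6 genes of deoxynucleotide supply had a median of 0.32. Against HK2 in 786-M1A these medians were -0.15 and 0.44. Members of the list moved in both directions. *MKI67*, the usual marker of cycling cells, was higher in both carcinoma lines, with log2 fold changes of 1.03 ± 0.11 (SE) in 786-O and 1.01 ± 0.11 in 786-M1A against HK2 (edgeR adjusted p = 3.44e-05 and 3.85e-05), as was *E2F2* (1.44 and 1.19), whereas *PCNA* (-0.99 and -0.89) and *PRIM1* (-1.18 and -1.17) were lower in both. *MYC*, a transcription factor known to act on many of the 39 genes, was at 277, 70.4 and 60.7 CPM in HK2, 786-O and 786-M1A. Its log2 fold changes were -1.97 ± 0.044 (SE) in 786-O and -2.19 ± 0.045 in 786-M1A against HK2 (edgeR adjusted p = 1.99e-20 and 3.81e-21). *E2F1*, which drives S-phase genes, was at 67.0, 67.7 and 78.0 CPM and was called higher in 786-M1A than in HK2 (0.22) but not in 786-O (0.018 ± 0.042). The part of proliferation, of *MYC* and of *E2F1* in the differences of the nucleotide genes was not tested.

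Some counts are uncertain for reasons of annotation, since the strand setting of the counting is not given in the sources used here. *TYMS* shares 39.9% of its exonic bases with the antisense gene *ENOSF1*, also in the count table. Reads in those shared bases can be told apart only if the counting used the strand. *NME1* shares 18.7% with the readthrough gene *NME1-NME2* on the same strand, also in the count table. Reads within those shared bases cannot be told apart by position or strand. *DCK* shares 6.41% with *MOB1B*. On the same strand, *IMPDH2* shares 32.8% and *ADSL* 11.1% of exonic bases with annotated protein-coding genes that were not found in the count table. How reads in those bases were counted is not given either. Pseudogenes are annotated for 11 of the 39, most for *IMPDH1* (10), *DUT* (8) and *PAICS* (7), and none of them is listed in the count table, and how reads that match both were counted is not given in the sources used here.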

How the data were processed

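RNA was sequenced from HK2, 786-O and 786-M1A cells (3 libraries each, stranded mRNA kit). The authors deposited whole-read counts per NCBI gene made with featureCounts of the Rsubread package on GRCh38, unfiltered and not normalized. The strand setting and annotation version are not given in the sources used here. Between 30212291 and 45362428 counts fell on genes per library.

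The 12695 of 28395 genes with 50 counts or more on average were tested with edgeR 4.0.16 in R 4.3.3 (TMM, robust quasi-likelihood F-test, a coefficient per line, all 9 libraries in one fit), with Benjamini-Hochberg adjustment over all genes tested. The study itself used VSN and limma. Standard errors were derived from the fold change and the F statistic. Paralog ratios used log2 CPM with a prior count of 2 and exact two-sided permutation tests over libraries. The floor is 3 counts per library; floors and intervals cover counting error only. Levels per kb used MANE Select transcripts (GENCODE 44), and promoter windows came from RefSeq. Alternatives were RLE and upper-quartile scaling, DESeq2 1.42.0, voom of limma 3.58.1, other filters, a fit of 2 lines, a replicate block, and each library left out. The test was checked on simulated counts in which few genes were changed, and in 786-O only. That check does not cover data where most genes differ between lines.

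The members and lists were chosen with earlier results of these data known. Every member is named; full values are given for *PPAT*, *IMPDH2*, *CAD*, *RRM2*, *TYMS*, *TK1*, *PAICS*, the 6 paralog pairs and, per comparison, the 5 largest called differences each way. In the related lists, *MTAP* and the 2 largest each way are named. Single results of some marker genes are not reported here.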

Additional observations from a re-analysis of the deposited data

Results flagged for a closer look

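For 2 of the 39 genes the differences from HK2 were called in opposite directions in the carcinoma lines. The difference between these effects, which is the comparison of 786-M1A with 786-O, was called too. That call comes from the same fit and is all but fixed by the opposite calls, so it is no separate evidence. *ADSL* was lower than HK2 in 786-O (-0.18 ± 0.038 on the log2 scale) and higher in 786-M1A (0.12 ± 0.038), and the effects differed by 0.2963 (edgeR adjusted p = 9.63e-07). The 786-M1A call was lost under upper-quartile scaling (0.068). *IMPDH2* was lower in 786-O (-0.085 ± 0.036) and higher in 786-M1A (0.15 ± 0.036), with a difference of 0.2341 (edgeR adjusted p = 1.18e-05). Its 786-O call was lost in 8 of 17 alternatives, with no change of sign. No group had enough libraries for a test of single outlying samples.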

How the results depend on the processing

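Under the 17 alternatives, the number of members called higher ran from 12 to 17 in 786-O against HK2, from 15 to 16 in 786-M1A against HK2 and from 12 to 16 in 786-M1A against 786-O. Those called lower ran from 16 to 18, from 16 to 18 and from 10 to 14. Upper-quartile scaling ended the calls of *ADK* and *DGUOK* in 786-O against HK2 and of *ADSL* in 786-M1A against HK2, and a table without a filter ended those of *IMPDH2* in 786-O against HK2 and of *PPAT* between the carcinoma lines. In at least 1 alternative, calls were gained by *APRT*, *CAD* and *UCKL1* in 786-O against HK2, by *PFAS* in 786-M1A against HK2, and by *CAD*, *HPRT1* and *TK1* between the carcinoma lines. No log2 fold change of a called member changed sign. The call of 32, 37 and 29 of the 39 did not change in any alternative in these comparisons. The median log2 fold changes of the members are close to 0 and moved by more than their spread in some settings. Upper-quartile scaling gave -0.0835, -0.0792 and 0.000554 in the 3 comparisons, against medians over all genes of -0.0541, -0.0671 and -0.00425. Between 786-M1A and 786-O, RLE scaling and DESeq2 both gave 0.0144, and a filter of 10 counts in every library, which drops *PRTFDC1*, gave -0.000814. Leaving out each library in turn gave medians from -0.0463 to -0.00119, from -0.0711 to 0.0241 and from -0.000218 to 0.0317; 786-O replicate 1 gave the end nearest 0 of the first range, HK2 replicates 2 and 3 gave the ends of the second, and 786-O replicate 2 and 786-M1A replicate 3 those of the third. With a prior count of 0.5 the difference of the *HPRT1* to *PRTFDC1* ratio was 8.79 in place of 8.29 between 786-O and HK2, and -5.31 in place of -4.83 between 786-M1A and 786-O. With a replicate block, 15 members were higher and 18 lower in 786-O against HK2, the added call being *UCKL1*, and no other call changed. The correlations of same-numbered libraries, across genes, ran from -0.167 to 0.215, and no pair of lines had all of them above 0.1. Between 786-M1A and 786-O they were 0.215, 0.074 and 0.11. Correlations of differently numbered libraries were not computed, so whether the replicate numbers pair the libraries cannot be told. The cause of these shifts was not tested. Depth limits *PRTFDC1* in 786-O, where 3 or 4 counts were seen per library.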
